A study of Homo sapiens with 12 samples.

Results

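The 10 genes described here are the EGF receptor family and its ligands. They comprise the 3 receptors EGFR, ERBB2 and ERBB3 and the 7 ligands AREG, EREG, HBEGF, TGFA, BTC, EPGN and NRG1. They were chosen by symbol, with no measured value in the rule, and all 10 were found among the 25382 symbols of the count table. Their RNA was measured in Cal27 cells, an established human line of oral (tongue) squamous carcinoma, in 12 libraries of 4 conditions with 3 replicates each. All cells were labelled wild type and grew on collagen-coated polyacrylamide gels in medium with serum, for 5 days of conditioning and 1 day after replating. The series asks which transcripts differ between cells that keep a memory of an earlier mechanical state and cells that do not.

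Stiff-to-soft cells were conditioned on gels of 20 kPa and replated on gels of 0.48 kPa. LPA-to-FAKi cells received lysophosphatidic acid (LPA), a lipid that raises cell contractility, during conditioning on soft gels. After replating on soft gels they received an inhibitor of FAK (focal adhesion kinase), an enzyme at the contacts of cells with their matrix. LPA-to-soft cells had LPA during conditioning on soft gels and were then on soft gels without the inhibitor. Soft-to-soft cells were on soft gels throughout, with neither agent. The series design counts stiff-to-soft and LPA-to-soft cells as having learned, and LPA-to-FAKi and soft-to-soft cells as not having learned. No condition without LPA received the FAK inhibitor, so an effect of the inhibitor alone cannot be told apart from one that needs LPA conditioning. The labels give neither the doses nor the name of the inhibitor. They also do not give from how many cultures the replicates came, and p-values therefore measure the spread between these samples only, which may be technical.

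The receptors are membrane tyrosine kinases that pair with each other once a ligand is bound. EGFR binds AREG, EREG, HBEGF, TGFA, BTC and EPGN, while ERBB3, whose own kinase is weak, binds NRG1, and ERBB2 has no known ligand and acts as a partner. Most of these ligands are made as membrane proteins and freed by proteases, after which they act on the same cell or its neighbours and drive the RAS-ERK cascade, and squamous carcinomas of the head and neck often carry much EGFR.

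EPGN, EREG, AREG and BTC are consecutive protein-coding genes on chromosome 4 in RefSeq. The bases just before the annotated start are shown for the 3 ligands on whose values the results below turn most: EREG and HBEGF, and AREG, which lies next to EREG. They are the 250 bases upstream of the start in RefSeq (build GRCh38.p14, while the counts were made on hg19), on the strand of the gene. Capitals mark matches, on either strand, to any of 5 motifs searched.
EREG, chr4:74364895-74365144, plus strand: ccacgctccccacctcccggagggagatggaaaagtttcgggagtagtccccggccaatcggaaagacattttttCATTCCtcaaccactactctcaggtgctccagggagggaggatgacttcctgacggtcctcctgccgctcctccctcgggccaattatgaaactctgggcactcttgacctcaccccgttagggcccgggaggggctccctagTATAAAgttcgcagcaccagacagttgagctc
HBEGF, chr5:140346604-140346853, minus strand: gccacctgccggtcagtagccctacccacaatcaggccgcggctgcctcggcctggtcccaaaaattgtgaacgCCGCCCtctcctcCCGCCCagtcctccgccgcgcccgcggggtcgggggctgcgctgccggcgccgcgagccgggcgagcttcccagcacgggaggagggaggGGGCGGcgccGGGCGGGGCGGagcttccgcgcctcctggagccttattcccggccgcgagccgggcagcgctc
AREG, chr4:74444886-74445135, plus strand: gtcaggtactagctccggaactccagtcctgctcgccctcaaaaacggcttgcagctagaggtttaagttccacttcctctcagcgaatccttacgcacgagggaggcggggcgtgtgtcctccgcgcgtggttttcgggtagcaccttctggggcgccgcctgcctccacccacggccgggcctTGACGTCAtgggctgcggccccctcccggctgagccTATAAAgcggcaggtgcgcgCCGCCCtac

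The motifs were the cAMP response element TGACGTCA, the AP-1 site TGANTCA, the TEAD core GGAATG, the TATA box TATAAA and the GC box GGGCGG. With the base before the start counted as -1, EREG held a TEAD core at -175 to -170 and a TATA box at -32 to -27. HBEGF held 5 GC boxes between -176 and -53, of which the last 2 share a base. In AREG a cAMP response element stood at -65 to -58, a TATA box at -29 to -24 and a GC box at -9 to -4. Of 27305 promoter windows of the same length, 1.77% held the cAMP response element, 6.6% the AP-1 site, 11.9% the TEAD core, 11.1% the TATA box and 42.3% the GC box. EPGN also had a TATA box, EGFR 2 GC boxes, TGFA 3 GC boxes and ERBB2 an AP-1 site, and BTC and ERBB3 had none of these letters in the window. A match is a run of letters and no measure of binding.

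Levels are given in CPM, a count divided by the TMM-scaled total of its library, so that libraries of unequal depth can be compared. Libraries held 62953957 to 122311183 counts each. One property set libraries apart: of the counts from 1 to 19, 42.9% and 42.2% were even in soft-to-soft replicates 1 and 2, against 96.8% to 97.8% in the other 10 libraries. Each comparison with soft-to-soft cells was therefore repeated without those 2 libraries, which leaves 1 soft-to-soft library. The squamous label was borne out by its markers, which summed to 6317 to 16580 CPM, with KRT5 at a mean of 4296 CPM. All 10 averaged at least 1 CPM, as did 2 of 8 fibroblast markers, 3 of 6 leukocyte markers and 2 of 5 endothelial ones. Summed markers of fibroblasts stayed between 14.6 and 36.4 CPM, those of leukocytes between 14.0 and 47.4 CPM and those of endothelium between 5.74 and 37.8 CPM. The highest marker of each list was COL1A1 at 12.7 to 30.9 CPM, CD68 at 9.49 to 41.9 CPM and CDH5 at 4.4 to 36.3 CPM. Among the other leukocyte markers CD3E was at 0, while CD14 and ITGAM reached 5.43 and 4.0 CPM.

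Across the family, levels spread widely. As RPKM, which is CPM divided by the kilobases of exon (mean of 12 libraries, exon lengths from GENCODE), HBEGF stood at 27.5 and EGFR at 22.0, and the ranges of these 2 overlapped. TGFA followed at 11.0, ERBB3 at 8.11, ERBB2 at 7.87, EREG at 7.535 and NRG1 at 5.34, each overlapping its neighbour in the order. AREG at 1.52 lay apart from NRG1 above it and from BTC below it, with no overlap over the 12 libraries. BTC averaged 0.327 and EPGN 0.0434. By this measure the cells carried RNA of all 3 receptors and, of the ligands, mainly that of HBEGF, TGFA, EREG and NRG1. Lengths took in every annotated exon of a gene, whether or not these cells use it, so the order is approximate. The place of AREG is uncertain, because hg19 carries a near-identical copy of it and how reads matching both were handled is not given. In bulk libraries such as these, fewer cells with a transcript and less of it in each cell cannot be told apart.

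Receptor RNA differed little between conditions. EGFR had 310.1, 234 and 208 CPM in stiff-to-soft cells, 369, 292.0 and 246 CPM in LPA-to-FAKi cells, 354, 300.5 and 236 CPM in LPA-to-soft cells, and 237, 318.5 and 194 CPM in soft-to-soft cells (replicates 1, 2 and 3 of each). All 4 ranges overlapped, and replicate 3 was the lowest of its condition in each. ERBB2, the partner receptor, averaged 81.5 ± 5.93 CPM in stiff-to-soft cells, 82.7 ± 8.15 CPM in LPA-to-FAKi cells, 78.9 ± 9.53 CPM in LPA-to-soft cells and 81.8 ± 11.7 CPM in soft-to-soft cells (SD, n = 3 each). ERBB3, the neuregulin receptor, averaged 76.3 ± 8.11, 74.6 ± 18.0, 72.0 ± 11.9 and 70.3 ± 20.9 CPM in the same order of conditions (SD, n = 3 each).

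With all 12 libraries, no receptor passed the test of edgeR in any comparison. The largest log2 fold change among the 3 receptors, fitted without replicate number, was 0.27 ± 0.229 (SE), for EGFR in LPA-to-FAKi against soft-to-soft cells, with an adjusted p of 0.999 (edgeR quasi-likelihood test, Benjamini-Hochberg over 15437 genes). For ERBB2 all 6 comparisons of 2 conditions lay between -0.05 and 0.07. EGFR was lower in stiff-to-soft than in LPA-to-FAKi cells within all 3 replicate numbers, by 0.25, 0.32 and 0.24 on the log2 scale, as were 19.3% of the genes tested. With the replicate number in the model this EGFR difference was -0.27 ± 0.127 (SE) at an adjusted p of 0.418 (edgeR). Between LPA-to-FAKi and soft-to-soft cells the blocked value of EGFR rested in part on 1 library. It was 0.27 ± 0.127 (SE) at an adjusted p of 0.322 with all libraries, lay between 0.10 and 0.47 over the omissions of 1 library, and passed the test, at 0.47 with an adjusted p of 0.0277, without soft-to-soft replicate 2 (edgeR).

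**Figure D1:**
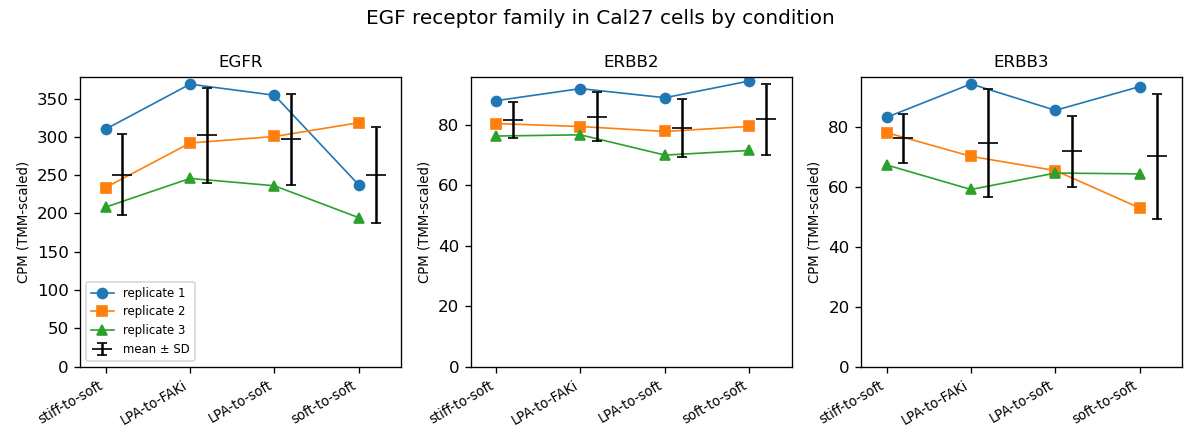
Levels of the 3 receptors (y axis, CPM after TMM scaling, from 0) in the 4 conditions (x axis). Coloured points joined by lines are libraries with the same replicate number, and black bars are the mean and SD of 3 libraries. The 4 conditions overlap for each receptor, and ERBB2 stays between 70.0 and 94.5 CPM.

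Of the ligands, EREG and HBEGF were the members that edgeR called, in the model with the replicate number described below. EREG encodes epiregulin, a ligand of EGFR and ERBB4. It had 37.1, 29.8 and 32.8 CPM in stiff-to-soft cells, 56.1, 49.4 and 48.3 CPM in LPA-to-FAKi cells, 46.6, 36.4 and 41.9 CPM in LPA-to-soft cells, and 48.1, 44.5 and 45.8 CPM in soft-to-soft cells. All 3 stiff-to-soft libraries lay below every LPA-to-FAKi and soft-to-soft library, and all 3 LPA-to-FAKi libraries lay above every library of the other conditions.

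HBEGF encodes heparin-binding EGF-like growth factor, also a ligand of EGFR and ERBB4. It had 92.7, 46.8 and 56.4 CPM in stiff-to-soft cells, 141.3, 79.4 and 77.9 CPM in LPA-to-FAKi cells, 113.4, 60.3 and 62.7 CPM in LPA-to-soft cells, and 134.0, 60.7 and 70.0 CPM in soft-to-soft cells. Replicate 1 was far above replicates 2 and 3 in each condition, so all 4 ranges overlapped, whereas the conditions stood in the same order within each number.

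For both EREG and HBEGF the order of the conditions was the same within each of the 3 replicate numbers, with LPA-to-FAKi highest, then soft-to-soft, LPA-to-soft and stiff-to-soft. Its middle places rest in part on near ties. LPA-to-soft differed from soft-to-soft cells by -0.01 on the log2 scale for HBEGF in number 2 and by -0.05 for EREG in number 1. Soft-to-soft replicate 2 is also one of the libraries with few even low counts. That order in all 3 numbers was found in 8 of 15437 genes (0.0518%), and any order repeated in all 3 numbers in 144 genes (0.933%). The order counted is that of EREG and HBEGF themselves, which are among the 8, so its share is a description and no test. Libraries with the same number shared more than these genes: over all genes tested, their deviations from the condition means correlated at r = 0.312 to 0.659 in 18 pairs. The replicate number was therefore also entered as a block, that is, a term that takes off what libraries of the same number share.

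**Figure D2:**
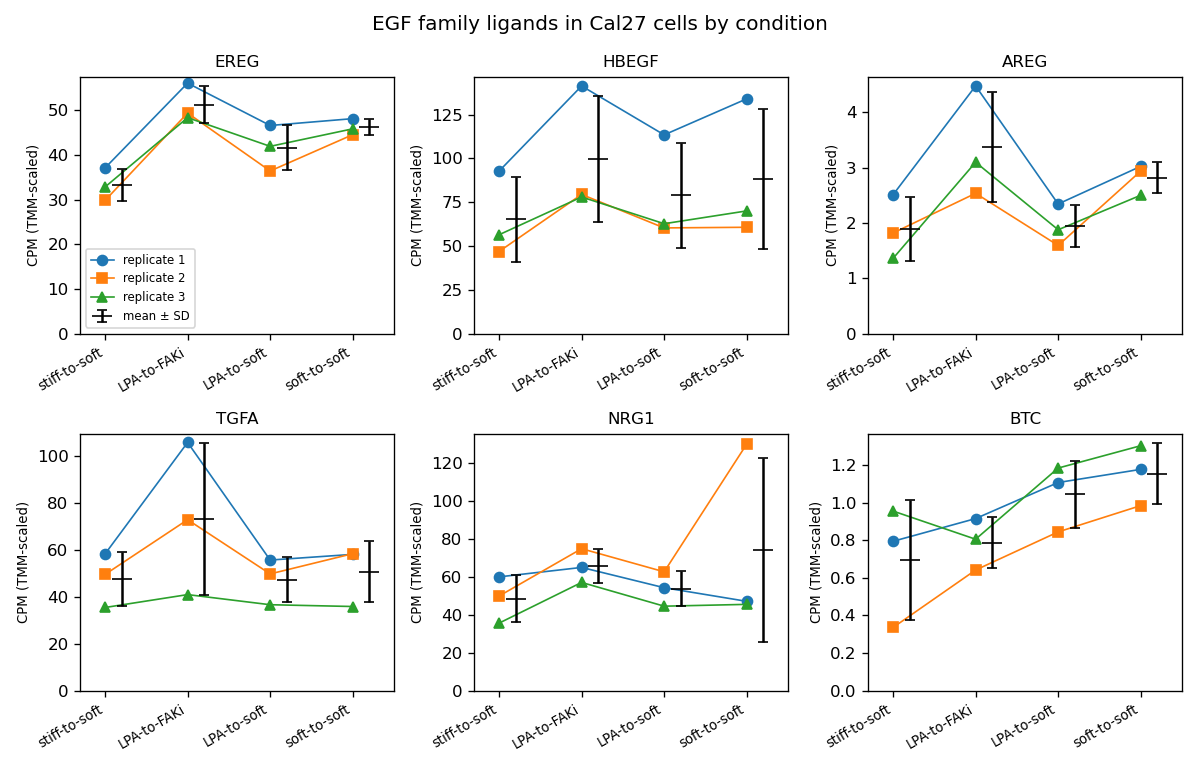
Levels of 6 ligands (y axis, CPM after TMM scaling, from 0) in the 4 conditions (x axis). Coloured points joined by lines are libraries with the same replicate number, and black bars are the mean and SD of 3 libraries. In each line of EREG and HBEGF the 4 conditions keep the same order, though LPA-to-soft and soft-to-soft are nearly level for HBEGF in replicate 2. HBEGF of replicate 1 lies between 92.7 and 141.3 CPM, and NRG1 in soft-to-soft replicate 2 stands at 130.0 CPM.

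After conditioning on a stiff gel, EREG and HBEGF were lower than in cells kept on soft gels. Stiff-to-soft cells had 33.2 ± 3.65 CPM of EREG and soft-to-soft cells 46.2 ± 1.82 CPM, and for HBEGF the means were 65.3 ± 24.2 CPM in stiff-to-soft cells and 88.2 ± 39.9 CPM in soft-to-soft cells (SD, n = 3 each). With the replicate block, EREG fell by 0.48 ± 0.067 (SE) on the log2 scale at an adjusted p of 0.0156, and HBEGF fell by 0.41 ± 0.071 (SE) at an adjusted p of 0.0367 (edgeR quasi-likelihood test, Benjamini-Hochberg over all genes). These 2 of 10 members stood among 53 genes called lower, or 0.343% of those tested. DESeq2 and limma voom with the block called the same 2 members, where they called 1.59% and 0.512% of all genes lower. Within the replicate numbers 1, 2 and 3 the differences were -0.38, -0.58 and -0.48 for EREG and -0.53, -0.37 and -0.31 for HBEGF.

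Without the block, edgeR called 0 of 15437 genes in this comparison, although 300 genes had an unadjusted p under 0.05, and DESeq2 called 4 genes, none of them a member. EREG then differed by -0.47 ± 0.115 (SE) at an unadjusted p of 0.00159 and an adjusted p of 1.0, and HBEGF by -0.43 ± 0.382 (SE) at an unadjusted p of 0.28 (edgeR). When soft-to-soft replicates 1 and 2 were left out of the blocked model, which leaves 1 soft-to-soft library, the values were -0.50 for EREG and -0.40 for HBEGF, at adjusted p of 0.327 and 0.534 (edgeR), and neither was called. Leaving out soft-to-soft replicate 3, stiff-to-soft replicate 2 or stiff-to-soft replicate 3 also ended both calls in the blocked fit, at adjusted p of 0.0802, 0.0991 and 0.105 for EREG (edgeR).

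The call of HBEGF was ended as well without soft-to-soft replicate 1, stiff-to-soft replicate 1 or any of the LPA-to-soft libraries, at adjusted p of 0.0522 to 0.0958 (edgeR with the block). Its blocked value over all 12 omissions stayed between -0.47 and -0.34, whereas without the block it ranged from -0.79 to -0.00, the value nearest 0 being that without soft-to-soft replicate 1.

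Of the other ligands, AREG, BTC, NRG1 and, by little, TGFA also had lower fitted values in stiff-to-soft than in soft-to-soft cells, but none was called. AREG, amphiregulin, had 2.51, 1.82 and 1.36 CPM in stiff-to-soft cells, 4.48, 2.54 and 3.10 CPM in LPA-to-FAKi cells, 2.34, 1.59 and 1.88 CPM in LPA-to-soft cells, and 3.03, 2.94 and 2.50 CPM in soft-to-soft cells. Between stiff-to-soft and soft-to-soft cells its log2 fold change was -0.61 ± 0.198 (SE) with the block at an adjusted p of 0.245 (edgeR). One stiff-to-soft library, replicate 1, lay just above the lowest soft-to-soft library, replicate 3, and all LPA-to-soft libraries lay below all soft-to-soft ones. Counts of AREG were 138 to 352 per library, and hg19 carries a near-identical copy of it that has no row in the table, so the level of AREG is uncertain, and how reads matching both were handled is not given.

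Betacellulin, BTC, was scarce, at 34 to 149 counts per library. It had 0.795, 0.336 and 0.956 CPM in stiff-to-soft cells, 0.916, 0.642 and 0.806 CPM in LPA-to-FAKi cells, 1.11, 0.845 and 1.19 CPM in LPA-to-soft cells, and 1.18, 0.985 and 1.30 CPM in soft-to-soft cells. Stiff-to-soft and soft-to-soft libraries did not overlap for BTC or EREG, as for 2.19% of all genes in the lower direction. Fitted over all libraries, the difference of BTC was -0.80 ± 0.292 (SE) with the block, at an adjusted p of 0.32 (edgeR). That value rested in part on stiff-to-soft replicate 2, the lowest library: within the numbers 1, 2 and 3 the differences were -0.56, -1.50 and -0.44. Without it the fitted difference was -0.53 with the block and -0.40 without, where the omissions of the other libraries reached -1.03. When soft-to-soft replicates 1 and 2 were left out, the blocked values were -0.61 for AREG and -0.72 for BTC, each at an adjusted p of 1.0 (edgeR).

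TGFA, transforming growth factor alpha, differed by -0.09 ± 0.124 (SE) between stiff-to-soft and soft-to-soft cells with the block (adjusted p = 0.892, edgeR). NRG1, the neuregulin that binds ERBB3, differed by -0.51 ± 0.249 (SE) with the block at an adjusted p of 0.542 (edgeR). Its 3 replicate numbers disagreed in sign, at 0.35, -1.38 and -0.35. Over the 6 ligands other than EPGN, fitted without the block, the log2 fold changes ran from -0.73 to -0.09 with a median of -0.52, where 51.8% of all genes were below 0 and the median gene was at -0.006.

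In the comparison of stiff-to-soft with LPA-to-FAKi cells the differences of EREG and HBEGF were larger than against soft-to-soft cells. These conditions differ in the stiffness of the conditioning gel, in LPA and in the FAK inhibitor at once. The part of each cannot be told apart in this comparison. EREG averaged 33.2 ± 3.65 CPM in stiff-to-soft cells and 51.3 ± 4.20 CPM in LPA-to-FAKi cells, and HBEGF 65.3 ± 24.2 CPM in stiff-to-soft cells and 99.6 ± 36.2 CPM in LPA-to-FAKi cells (SD, n = 3 each). With the block, EREG fell by 0.63 ± 0.067 (SE) at an adjusted p of 0.00735 and HBEGF fell by 0.61 ± 0.071 (SE) at an adjusted p of 0.0111 (edgeR). They were 2 of the 4 genes called lower in stiff-to-soft cells, 0.0259% of those tested, and 1 gene was called higher. The 3 replicate numbers gave -0.60, -0.73 and -0.56 for EREG and -0.61, -0.76 and -0.47 for HBEGF.

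Both of these calls stood without soft-to-soft replicates 1 and 2, at adjusted p of 0.00379 for EREG and 0.00397 for HBEGF (edgeR with the block). Each was held in 9 of 12 omissions of 1 library. EREG lost its call without LPA-to-FAKi replicate 2, stiff-to-soft replicate 2 or stiff-to-soft replicate 3, at adjusted p of 0.0868, 0.0879 and 0.0779, and HBEGF without LPA-to-FAKi replicate 2, stiff-to-soft replicate 1 or stiff-to-soft replicate 2, at 0.0986, 0.0603 and 0.11 (edgeR with the block). Without the block edgeR called 0 genes, with 453 at an unadjusted p under 0.05, whereas DESeq2 without the block called 4 genes, of which 1, EREG, was lower in stiff-to-soft cells (0.00648%).

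AREG and TGFA were also lower in stiff-to-soft than in LPA-to-FAKi cells within all 3 replicate numbers. The differences of AREG were -0.83, -0.48 and -1.18, and its libraries did not overlap, as for 3.82% of all genes in that direction. TGFA differed by -0.86, -0.56 and -0.21. Fitted with the block, AREG was at -0.83 ± 0.197 (SE) and TGFA at -0.56 ± 0.124 (SE), at adjusted p of 0.132 and 0.116 (edgeR), so neither was called. DESeq2 with the block called AREG and TGFA, along with EREG and HBEGF, lower in stiff-to-soft cells, where it called 0.862% of all genes lower. limma voom with the block called EREG and HBEGF, where it called 0.11% lower.

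FAK inhibition after LPA conditioning is addressed by LPA-to-FAKi against LPA-to-soft cells, which differ in the labels by the inhibitor alone. AREG averaged 3.37 ± 1.00 CPM in LPA-to-FAKi cells and 1.94 ± 0.379 CPM in LPA-to-soft cells (SD, n = 3 each). TGFA had 105.9, 72.9 and 41.0 CPM in LPA-to-FAKi cells and 55.7, 49.8 and 36.6 CPM in LPA-to-soft cells. In replicate number 3 the TGFA level was low in both conditions, and the difference was 0.16 there, against 0.93 and 0.55 in numbers 1 and 2.

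Of the 6 ligands other than EPGN, 5 had higher values with the inhibitor in all 3 replicate numbers. The log2 differences were 0.93, 0.66 and 0.72 for AREG. EREG differed by 0.27, 0.44 and 0.21 and HBEGF by 0.32, 0.40 and 0.31. For NRG1 the differences were 0.26, 0.26 and 0.36. A higher value in all 3 numbers was found in 22.9% of the genes tested. LPA-to-FAKi libraries lay above all LPA-to-soft libraries for AREG and EREG, as for 5.95% of all genes.

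With the block none of 15437 genes was called by edgeR, although 3439 had an unadjusted p under 0.05. HBEGF was at 0.34 ± 0.070 (SE) with an adjusted p of 0.0752, and EREG at 0.30 ± 0.067 (SE) with 0.0757 (edgeR). TGFA was at 0.56 ± 0.124 (SE) with an adjusted p of 0.0757, and AREG at 0.78 ± 0.196 (SE) with 0.0856 (edgeR). DESeq2 with the block called these 4 ligands higher, at adjusted p of 0.00373 for HBEGF, 0.00387 for EREG, 0.00224 for TGFA and 0.00807 for AREG, where it called 4.15% of all genes higher. limma voom with the block called 37 genes and no member, and edgeR without the block called 0 genes, with 838 at an unadjusted p under 0.05.

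BTC went the other way than these 5 ligands, at -0.27, -0.39 and -0.54 within the replicate numbers and -0.40 ± 0.288 (SE) with the block (adjusted p = 0.438, edgeR). EPGN, epigen, had 0 counts in all 3 LPA-to-FAKi libraries. It had 12, 4 and 16 counts in stiff-to-soft cells, 4, 6 and 28 counts in LPA-to-soft cells and 6, 9 and 10 counts in soft-to-soft cells. Against a floor of 3 counts over the LPA-to-FAKi group, EPGN was at least 9.56-fold lower there than in stiff-to-soft cells, at least 10.7-fold lower than in LPA-to-soft cells and at least 9.29-fold lower than in soft-to-soft cells. Low counts were nearly all even in the LPA-to-FAKi libraries, and if 2 counts there stand for 1 fragment, which was not tested, the floor is too low and these folds are overstated. EPGN passed the filter on low counts only through the other conditions, so no call is given for it.

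LPA-to-FAKi and soft-to-soft cells, both placed among those that had not learned, differed in single ligands only to a degree that edgeR did not call. It called 87 genes with the block (0.564%), none of them a member. TGFA stood at 105.9, 72.9 and 41.0 CPM in LPA-to-FAKi cells and 58.1, 58.4 and 35.9 CPM in soft-to-soft cells. Its fitted difference was 0.47 ± 0.124 (SE) with the block, at an adjusted p of 0.118 by edgeR and of 0.0145 by DESeq2, which called 1.55% of all genes higher with the block. Without LPA-to-FAKi replicate 3 the difference of TGFA was called by edgeR, at 0.64 with an adjusted p of 0.0269, and without soft-to-soft replicates 1 and 2 it was 0.44 at an adjusted p of 0.588 (edgeR with the block). Libraries did not overlap for EREG in the higher direction (3.04% of all genes) or for BTC in the lower direction (3.12%). The blocked values of the other ligands were 0.22 ± 0.196 for AREG, 0.15 ± 0.067 for EREG, 0.21 ± 0.070 for HBEGF, -0.55 ± 0.290 for BTC and -0.07 ± 0.247 for NRG1 (SE), at adjusted p of 0.608, 0.298, 0.187, 0.37 and 0.916 (edgeR).

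For LPA conditioning alone edgeR called no gene, and neither edgeR nor DESeq2 called a member. Between LPA-to-soft and soft-to-soft cells the unadjusted p of edgeR was under 0.05 for 211 genes without the block and 1231 with it, and 0 genes were called in both, while DESeq2 called 2 genes without the block and 72 with it, none of them a member. AREG averaged 1.94 ± 0.379 CPM in LPA-to-soft cells and 2.82 ± 0.281 CPM in soft-to-soft cells (SD, n = 3 each), without overlap, as for 2.18% of all genes in the lower direction. Its log2 fold change with the block was -0.56 ± 0.197 (SE) at an adjusted p of 0.536 (edgeR). For EREG it was -0.16 ± 0.067 (SE), with -0.05, -0.29 and -0.13 within the numbers, and for HBEGF -0.14 ± 0.070 (SE), at adjusted p of 0.615 and 0.666 (edgeR). The other members with a fitted value lay between -0.36 ± 0.247 (SE) for NRG1 and 0.24 ± 0.127 (SE) for EGFR, with ERBB2 at -0.05, ERBB3 at 0.05, TGFA at -0.09 and BTC at -0.15, at adjusted p of 0.682 to 0.929 (edgeR with the block). Without soft-to-soft replicates 1 and 2 AREG was at -0.56, EREG at -0.18 and HBEGF at -0.13, each at an adjusted p of 1.0 (edgeR with the block).

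The 2 conditions counted as having learned were also set against each other. In stiff-to-soft against LPA-to-soft cells, edgeR called 1 gene with the block (0.00648%), which was no member, and 0 genes without it, where 215 had an unadjusted p under 0.05. EREG differed by -0.33, -0.29 and -0.35 within the numbers, and its blocked value was -0.32 ± 0.067 (SE) at an adjusted p of 0.364 by edgeR and of 0.0111 by DESeq2, which called 0.207% of all genes lower. HBEGF was at -0.27 ± 0.070 (SE) with an adjusted p of 0.452 (edgeR with the block). BTC was lower in stiff-to-soft cells in all 3 numbers, by 0.47, 1.28 and 0.30, and fitted at -0.65 ± 0.289 (SE) with an adjusted p of 0.526 (edgeR with the block). EGFR was at -0.24, ERBB2 at 0.05, ERBB3 at 0.10, AREG at -0.05, TGFA at 0.00 and NRG1 at -0.15, at adjusted p of 0.57 to 0.998 (edgeR with the block). These comparisons share libraries with those above, so their values are not independent.

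**Figure D3:**
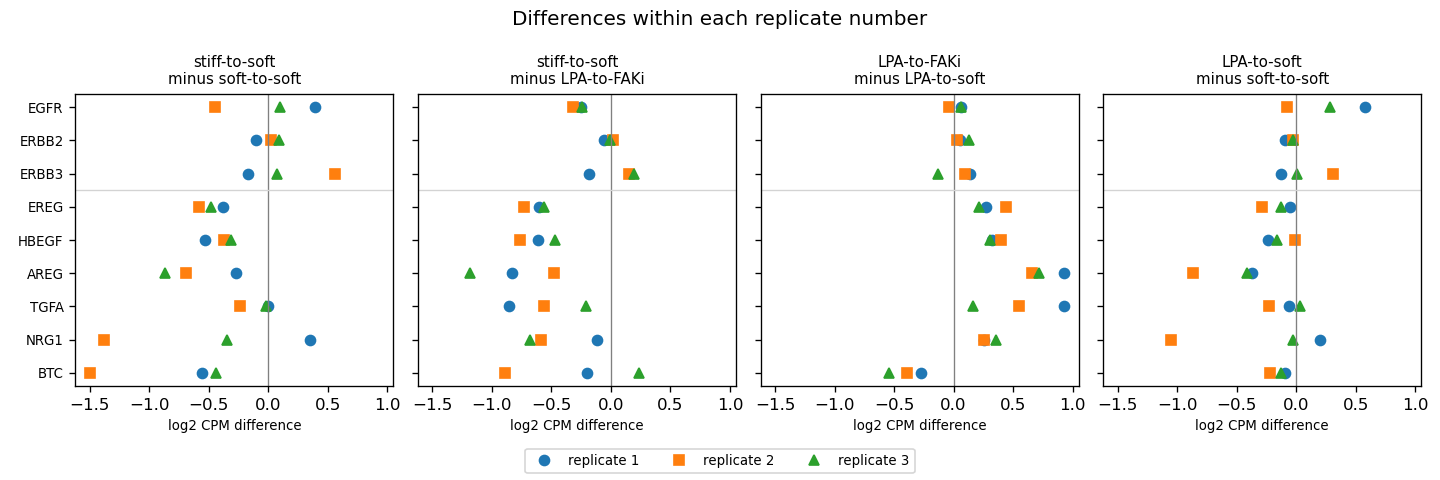
Differences in log2 CPM within each replicate number (x axis, 1 point per number) for 3 receptors and 6 ligands (y axis), in 4 comparisons. Points left of the vertical line are lower in the condition named first. EREG and HBEGF lie left of it in all 3 numbers against soft-to-soft and LPA-to-FAKi cells, with EREG at -0.38, -0.58 and -0.48 against soft-to-soft cells, whereas EGFR lies on both sides of it against soft-to-soft cells.

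By class, EREG averaged 37.4 ± 6.08 CPM in the 6 libraries that had learned and 48.7 ± 4.02 CPM in the 6 that had not, and AREG 1.92 ± 0.438 CPM in those that had learned and 3.10 ± 0.722 CPM in those that had not (SD, n = 6 each). In a model of the 2 classes edgeR called no member. With the block EREG was at -0.39 ± 0.085 (SE), HBEGF at -0.37 ± 0.083 (SE) and AREG at -0.70 ± 0.138 (SE), at adjusted p of 0.203, 0.207 and 0.203 (edgeR), and 1 gene was called in all (0.00648%). When any 1 library was left out of this model, no member was called. The adjusted p was then 0.0932 to 0.446 for EREG and 0.121 to 0.403 for HBEGF (edgeR with the block). Neither was called without soft-to-soft replicates 1 and 2. DESeq2 with the block called EREG, HBEGF and AREG lower, where it called 0.389% of all genes. When the classes were contrasted within the blocked model of conditions, the class difference was called for EREG, which fell by 0.39 ± 0.048 (SE) at an adjusted p of 0.0246, and for HBEGF, which fell by 0.375 ± 0.050 (SE) at an adjusted p of 0.0295 (edgeR). They were then 2 of 5 genes called lower, 0.0324% of those tested. The p-values of this contrast measure the spread of libraries around their condition and replicate number. Differences between the 2 conditions of a class, such as -0.32 for EREG between stiff-to-soft and LPA-to-soft cells, do not enter that spread. In the model of 2 classes, which called neither gene, they do. Omissions of libraries, soft-to-soft replicates 1 and 2 among them, are not given for this contrast. DESeq2 with the block called AREG and TGFA in this contrast besides EREG and HBEGF, where it called 0.978% of all genes lower. Without the block edgeR called 0 genes in either form, with 446 and 426 at an unadjusted p under 0.05, and DESeq2 called 0 genes in the model of 2 classes and 2 genes, none of them a member, in the contrast.

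How far the conditions accounted for each member's variation was read from the sum of squares of its log2 CPM over the 12 libraries. In EREG, 81.6% of it lay between conditions, 15.0% between replicate numbers and 3.4% in neither, and a share between conditions at least that large was found in 31 of 15437 genes (0.201%). HBEGF had 20.8% between conditions and 77.6% between replicate numbers, which left 1.6%, and 0.512% of all genes were left with as little. AREG had 62.0% between conditions, whereas ERBB2 had 90.1% between replicate numbers and 3.8% between conditions. The median gene had 19.3% between conditions and 50.5% between replicate numbers.

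**Figure D4:**
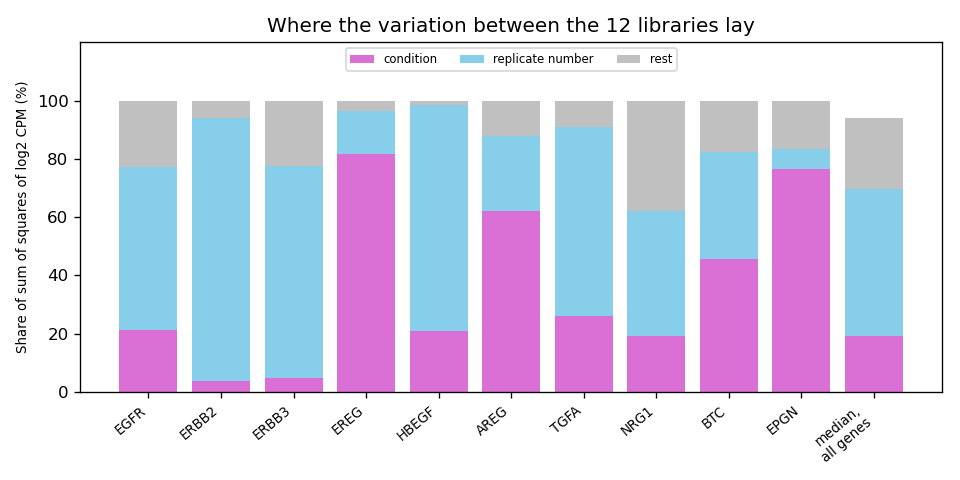
Shares of the sum of squares of log2 CPM over 12 libraries (y axis, percent) that lie between conditions, between replicate numbers or in neither, for the 10 members (x axis) and as the median of each share over all genes tested, which need not add up to 100. EREG has 81.6% between conditions, while ERBB2 with 90.1% and HBEGF with 77.6% vary mainly with the replicate number.

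Over the 12 libraries, after the mean of each replicate number was taken off, log2 CPM of EREG and HBEGF correlated at r = 0.93, of EREG and AREG at r = 0.82 and of AREG and TGFA at r = 0.71. EREG and EGFR had r = 0.43 and EREG and BTC r = 0.47. These are descriptions over 12 libraries that share conditions and scaling. Of 12509 genes averaging at least 1 CPM, those most like EREG by this measure were SPRR2A, a cornified envelope protein of squamous cells (r = 0.968), THBD, the thrombin receptor thrombomodulin (r = 0.945), and SERPINB2, a plasminogen activator inhibitor (r = 0.944). HBEGF was most like WNT9A, a Wnt ligand (r = 0.981), THBD (r = 0.939) and EREG itself. TGFA was most like PCDH1, a protocadherin (r = 0.978), LYPLA2 (r = 0.974) and PPARD, a nuclear receptor (r = 0.968), and AREG like ACAD8 (r = 0.944), SFN, an epithelial 14-3-3 protein (r = 0.933), and PCMT1 (r = 0.928). NRG1 was most like USP10 (r = 0.973), COL17A1, a hemidesmosomal collagen (r = 0.959), and RPS6KA1, a kinase below ERK (r = 0.959), and BTC like ZHX1 (r = 0.974), FAM83B (r = 0.924) and TANC1 (r = 0.908). The genes most like the receptors and EPGN had r between 0.888 and 0.938.

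Other members of the family added little RNA. EGF itself had 115 to 382 counts per library, or 1.46 to 3.63 CPM, and passed no test. NRG2 had 6 to 17 counts, ERBB4 0 to 6 and NRG4 0 to 27, and NRG3 had 0 in all 12 libraries. EGFR-AS1, which lies antisense to EGFR, had 0 to 10 counts.

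Of the genes that act around and below the receptors, called genes were found only in the list of transcripts that ERK signalling induces. With the block, 5 of its 19 tested genes were called lower in stiff-to-soft than in soft-to-soft cells, where 0.343% of all genes were, and its median log2 fold change was -0.43, against -0.002 for all genes. The list was chosen with earlier results of these data known, so these values describe its genes and do not test the list. EGR3, a zinc-finger factor made soon after growth factor stimulation, had 33.6, 6.11 and 41.5 CPM in stiff-to-soft cells and 93.2, 14.6 and 97.0 CPM in soft-to-soft cells. It fell by 1.32 ± 0.228 (SE) on the log2 scale at an adjusted p of 0.0358 (edgeR with the block).

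Its relative EGR1 fell by 0.72 ± 0.136 (SE) at an adjusted p of 0.0471, with 665 ± 346 CPM in stiff-to-soft cells and 1101 ± 569 CPM in soft-to-soft cells (edgeR with the block; SD, n = 3 each). IER3, an immediate early gene, fell by 0.46 ± 0.072 (SE) at an adjusted p of 0.0223, and IER2, likewise an immediate early gene, by 0.60 ± 0.098 (SE) at an adjusted p of 0.0282 (edgeR with the block). KLF10, a repressor first known from TGF-beta responses, fell by 0.53 ± 0.095 (SE) at an adjusted p of 0.0402 (edgeR with the block). When soft-to-soft replicates 1 and 2 were left out, edgeR called no gene at all in this comparison. In LPA-to-FAKi against soft-to-soft cells 1 of the 19 was called, EGR3, which fell by 1.46 ± 0.229 (SE) at an adjusted p of 0.0251 (edgeR with the block), where 0.408% of all genes were called lower. Without soft-to-soft replicates 1 and 2 EGR3 was at -1.24 with an adjusted p of 0.293, and again no gene was called (edgeR with the block).

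EGR3 was low in LPA-to-FAKi cells, in which EREG and HBEGF were at their highest, with 26.4, 4.01 and 53.5 CPM there against 93.0, 8.47 and 71.1 CPM in LPA-to-soft cells. The list of transcripts that ERK induces did not share this direction. Over its 19 tested genes, 10 fitted values were above 0 and 9 below in this comparison (edgeR with the block). Their median was 0.03, and no gene was called. Of the other genes named above, IER2 and IER3 had higher means in LPA-to-FAKi than in LPA-to-soft cells, and EGR1 and KLF10 lower ones. In no comparison of 2 conditions was a gene called among the 11 of ligand shedding and trafficking, the 25 adaptors and proximal signalling proteins, the 13 of the RAS-ERK cascade or the 17 tested feedback inhibitors, by edgeR with or without the block. Between stiff-to-soft and soft-to-soft cells their blocked medians were 0.06 for shedding and trafficking, -0.01 for adaptors, -0.00 for the cascade and -0.11 for feedback inhibitors.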

How the data were processed

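RNA of 12 Cal27 libraries was sequenced from stranded TruSeq libraries, per the labels' protocols. The authors deposited read counts (whole numbers, 1 line per symbol) and log2 values. Tools named in the submitters' processing notes, without versions, were STAR, HTSeq, cutadapt, FastQC and DESeq2, with build hg19. Strand setting, annotation and handling of multiply mapped reads were not given in the sources used here. Values in the deposited log2 table equalled log2(count x factor + 1), with 1 factor per library (relative range at most 6.9e-09), and entered no test.

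The test was the quasi-likelihood F test of edgeR 4.0.16 (R 4.3.3) with TMM scaling and filterByExpr by condition, which kept 15437 genes and all 10 members; EPGN passed through conditions other than LPA-to-FAKi. Comparisons of 2 conditions were contrasts in a model of all 12 libraries, and learned against not learned was a model of 2 classes. A call needs a Benjamini-Hochberg adjusted p under 0.05 over all genes. The model without replicate number was the planned one. The numbers, taken from the labels, were judged to pair the libraries because the deviations of every same-numbered pair correlated above 0.1 (0.312 to 0.659, against -0.517 to 0.037 between numbers), and values with the block are given beside it. Deviations within a condition sum to 0, so positive correlations within numbers force negative ones between numbers on average. The second range is therefore no separate evidence. DESeq2 1.42.0, limma 3.58.1 voom, other scaling, no filter, omission of each library, omission of soft-to-soft replicates 1 and 2, and halved counts of the other 10 libraries were alternatives, and scaling changes with the block were added after seeing the data. The edgeR fits were also run on simulated counts with replicate effects built in. Those counts did not imitate the even low counts, and no result here rests on them. Counts of 3 set the floor for EPGN. Log2 CPM used a prior count of 2. Exon lengths came from GENCODE and sequences from RefSeq.

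The members, the gene lists and the motifs were chosen with earlier results of these data known. The rule was to name all 10 members in every comparison, but the receptors are summarised in paragraphs of their own and EPGN is given by its counts. Other pathway genes are named where edgeR called them; the further receptors and ligands of the family are given in full, and EGFR-AS1 was named after its counts were seen. For each member the 3 most correlated genes are given. NRG1 was left out of the promoter search.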

Additional observations from a re-analysis of the deposited data

Results flagged for a closer look

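In the 6 libraries of the class that had not learned, 2 members had a library far from the others. AREG was at 4.479 CPM in LPA-to-FAKi replicate 1, where the other 5 libraries of the class lay between 2.50 and 3.10 CPM. NRG1 was at 130.0 CPM in soft-to-soft replicate 2, where the other 5 lay between 45.5 and 74.8 CPM. That soft-to-soft library is also one of those with few even low counts, and whether this bears on its NRG1 level was not tested. Chance alone flags about 1 in 20 such groups.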

How the results depend on the processing

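Without a block edgeR called 0 members in each comparison, also when any 1 library was left out. With the replicate block it called 2 members between stiff-to-soft and soft-to-soft cells and 2 between stiff-to-soft and LPA-to-FAKi cells, and in no other comparison of 2 conditions or classes. Those counts of 2 were also given, each with the block, by voom, by halved counts of the other 10 libraries and, chosen after seeing the data, by RLE factors and by no scaling. When soft-to-soft replicates 1 and 2 were left out of the blocked model, the counts were 0 between stiff-to-soft and soft-to-soft, 2 between stiff-to-soft and LPA-to-FAKi and 1, HBEGF, between LPA-to-FAKi and LPA-to-soft cells. DESeq2 without a block called 1 member, EREG, between stiff-to-soft and LPA-to-FAKi cells. DESeq2 with the block called 2 between stiff-to-soft and soft-to-soft, 4 between LPA-to-FAKi and LPA-to-soft, 2 between LPA-to-FAKi and soft-to-soft, 1 between stiff-to-soft and LPA-to-soft, 5 between stiff-to-soft and LPA-to-FAKi and 3 between learned and not learned. EPGN, for which no call is given, is counted in the 2 between LPA-to-FAKi and soft-to-soft and in the 5. The class contrast of 4 conditions with the block called 2 by edgeR and 4 by DESeq2.

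When 1 library was left out under the block, the members called ranged from 0 to 2 between stiff-to-soft and soft-to-soft, 0 to 4 between LPA-to-FAKi and LPA-to-soft, 0 to 1 between LPA-to-FAKi and soft-to-soft (EGFR without soft-to-soft replicate 2, TGFA without LPA-to-FAKi replicate 3) and 0 to 3 between stiff-to-soft and LPA-to-FAKi cells. The genes called ranged from 7 to 228, 0 to 639, 0 to 307 and 1 to 195 in the same order, against 90, 0, 87 and 5 with all libraries. Member fold changes under 0.1 in size without the block, and those of EPGN, were not followed, so sign changes among them are not counted. No member was called without the block by edgeR, so a kept call was the absence of one. Of 1502 alternative values of 44 member fold changes, 1399 kept direction and call, 80 kept direction and were called in addition, and 23 changed sign. One of these was NRG1 between LPA-to-FAKi and soft-to-soft cells, at 0.23 without soft-to-soft replicates 1 and 2 in the blocked model. The others came from leaving out 1 library. The log2 fold changes of stiff-to-soft over soft-to-soft cells then ranged from -0.06 to 0.38 without the block and -0.01 to 0.25 with it for ERBB3, and from -0.87 to 0.06 without it for NRG1. For LPA-to-soft over soft-to-soft cells the ranges without the block were -0.53 to 0.27 for HBEGF and -0.30 to 0.05 for TGFA, and for NRG1 -0.72 to 0.21 without and -0.64 to 0.11 with it. HBEGF ranged from -0.01 to 0.69 without the block for LPA-to-FAKi over LPA-to-soft cells. For LPA-to-FAKi over soft-to-soft cells the ranges without the block were -0.01 to 0.41 for AREG and -0.18 to 0.61 for HBEGF, and for NRG1 -0.43 to 0.49 without and -0.34 to 0.39 with it. For stiff-to-soft over LPA-to-soft cells HBEGF ranged from -0.62 to 0.09 without the block, and NRG1 from -0.34 to 0.03 without and -0.43 to 0.04 with it. BTC ranged from -0.47 to 0.16 without and -0.47 to 0.03 with the block for stiff-to-soft over LPA-to-FAKi cells, and from -0.26 to 0.01 without it by class. The cause was not tested. Depth limits BTC and EPGN, with at most 149 and 28 counts per library.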
